A study of Mus musculus with 10 samples.

Results

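The interferon regulatory factors are a family of transcription factors, and the transcripts of 8 of them, Irf1, Irf2, Irf3, Irf4, Irf5, Irf7, Irf8 and Irf9, were measured in mouse brain after a focal injury. They were taken by gene symbol, each from its array feature with the highest mean over all arrays, and they are 8 of 30142 genes tested. Adult male and female animals, aged 8 to 12 weeks, had received a controlled cortical impact, a piston blow to the exposed brain surface, 2 mm deep and on one hemisphere. The ipsilateral samples were brain tissue taken at the impact site 7 days later (5 arrays), and the contralateral samples were the corresponding region of the opposite hemisphere (5 arrays). The sources used here name neither strain nor genotype. Both groups came from impacted mice, so the contralateral tissue is not that of uninjured animals. The labels call the samples biological replicates without saying which animals they came from.

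Proteins of this family share an N-terminal DNA-binding domain with conserved tryptophans, through which they read repeats of the letters GAAA in the interferon-stimulated response element (ISRE) of their targets. Some members, such as Irf3, are present before any stimulus and are activated by phosphorylation, whereas others, such as Irf7 and Irf9, are themselves induced by interferon. In brain, Irf8 is known as a factor that microglia need for their development, and Irf5 acts in the same myeloid lineage.

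In the impacted tissue, 1 of the 8 factors passed the test, and it fell. Irf2, which competes with Irf1 for the same DNA sites and is best known as a repressor of interferon-responsive genes, was lower on every ipsilateral array than on any contralateral array, and fell by 23.5%, a log2 difference of -0.39. Irf9, Irf7, Irf8 and Irf1 had higher means at the impact site, by 0.69, 0.74, 0.38 and 0.22 on the log2 scale, but none of them passed, and their high values came mainly from ipsilateral replicates 4 and 5. Irf3, Irf4 and Irf5 had differences of 0.01, -0.06 and 0.07, which did not pass either. A gene was called at an adjusted p under 0.05 in limma, fitted and adjusted over all genes tested. Over all genes 5.55% were called, 4.33% as lower and 1.22% as higher, which are 1305 and 369 genes. With each array centred on its median these counts were 2623 lower and 232 higher.

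**Figure D1:**
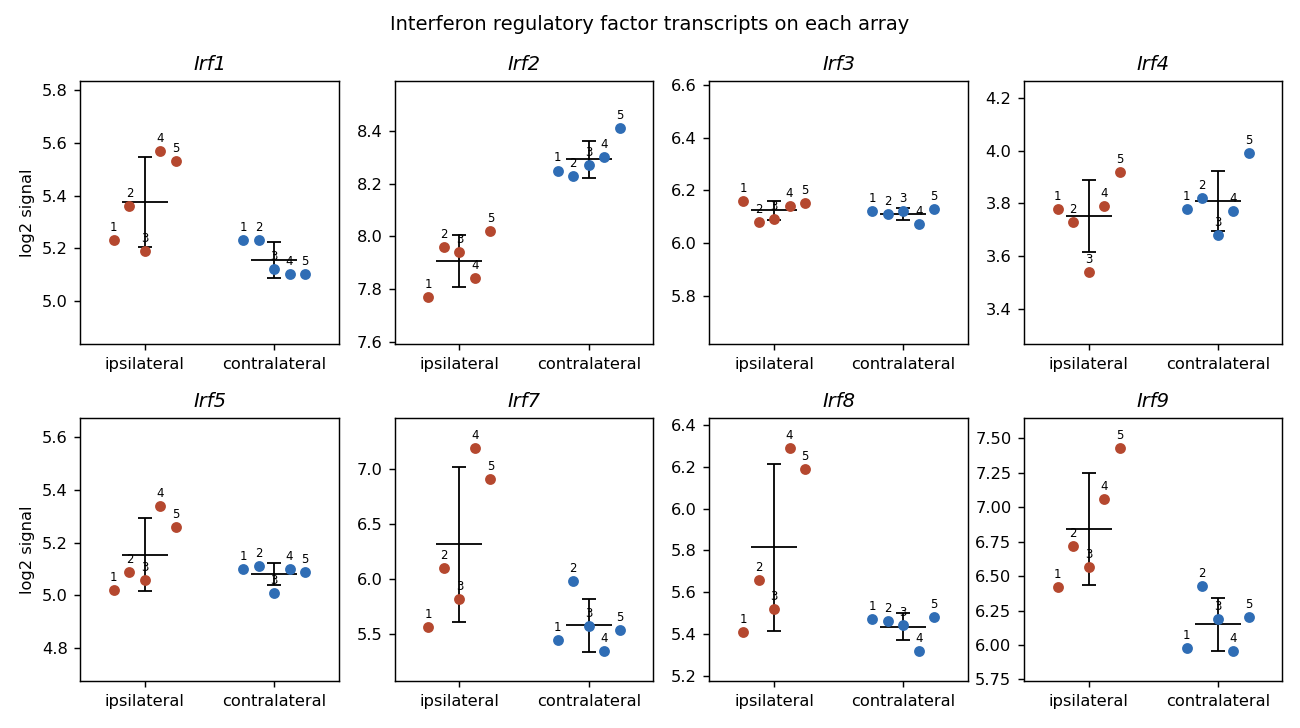
Log2 signal (vertical axis, each panel with its own range) of the 8 members on each array, ipsilateral arrays left and contralateral arrays right. Points carry the replicate number, and black bars give the mean and SD of 5 arrays; Irf2 is the member whose groups do not overlap, and ipsilateral replicates 4 and 5 are the highest for Irf1, Irf5, Irf7, Irf8 and Irf9.

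The tissue was brain by its markers: the neuronal gene Snap25 averaged 18.18 ipsilaterally and 18.32 contralaterally, and the astrocyte gene Gfap 15.73 and 13.66. Array medians over all features ran from 4.79 to 4.84 ipsilaterally and from 4.71 to 4.77 contralaterally, so every ipsilateral median lay above every contralateral one, and a small offset between arrays cannot be told apart from side. Irf4 lay below the median of its array on all 10 arrays, where signal above background was not shown. Those medians cover all features. Among the genes tested alone, the median of the 10-array means was 5.55, and Irf1 (5.27) and Irf5 (5.12) also lay below it. Signals of different genes were not compared as amounts of transcript, since features differ in their response. In the mean levels of 8 of 15 gene lists (interferon-induced genes, interferon receptors and STATs, sensors and kinases, microglia, macrophages, neutrophils, T and NK cells, and astrocytes), ipsilateral replicates 4 and 5 stood above all other arrays, and ipsilateral replicate 1 lay within the contralateral range. The neuronal list was lowest on ipsilateral replicates 4 and 5 (13.26 and 13.29). With 5 arrays per side, precision is limited by their number.

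Promoter sequence is shown for Irf2, the member that fell, and for Irf1, Irf8, Irf7 and Irf9, the other members that differed at an unadjusted p under 0.05. Each window is the 250 bases before the annotated transcription start in RefSeq (GRCm38.p6), written 5′ to 3′ on the gene's strand, and where a gene has several windows the one with the lowest coordinate is given. Capitals mark matches to the ISRE core, which is GAAA followed after any 2 bases by a second GAAA, or to the STAT-binding GAS element, TTCNNNGAA, both searched on both strands, and no 2 matches overlapped.
Irf2 (chr8:46739495-46739744, plus strand): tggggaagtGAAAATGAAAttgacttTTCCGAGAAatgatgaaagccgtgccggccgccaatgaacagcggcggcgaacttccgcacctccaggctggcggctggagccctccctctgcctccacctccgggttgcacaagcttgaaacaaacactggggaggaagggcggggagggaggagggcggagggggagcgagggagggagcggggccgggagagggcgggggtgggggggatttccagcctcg
Irf1 (chr11:53769764-53770013, plus strand): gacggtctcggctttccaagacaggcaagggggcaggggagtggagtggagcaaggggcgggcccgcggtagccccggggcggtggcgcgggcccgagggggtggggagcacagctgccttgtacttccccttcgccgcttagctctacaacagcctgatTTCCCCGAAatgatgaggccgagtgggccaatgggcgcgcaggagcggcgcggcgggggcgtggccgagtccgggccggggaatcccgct
Irf8 (chr8:120736108-120736357, plus strand): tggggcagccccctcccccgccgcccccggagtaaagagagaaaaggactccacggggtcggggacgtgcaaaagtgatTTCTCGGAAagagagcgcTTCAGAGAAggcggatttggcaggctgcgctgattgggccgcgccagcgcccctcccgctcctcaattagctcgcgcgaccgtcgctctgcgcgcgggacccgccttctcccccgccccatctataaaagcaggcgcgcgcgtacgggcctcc
Irf7 (chr7:141266425-141266674, minus strand): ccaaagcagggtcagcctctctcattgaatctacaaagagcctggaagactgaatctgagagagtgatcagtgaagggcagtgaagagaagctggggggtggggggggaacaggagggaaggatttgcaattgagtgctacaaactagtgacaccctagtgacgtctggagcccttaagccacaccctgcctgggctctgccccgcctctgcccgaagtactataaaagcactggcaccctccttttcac
Irf9 (chr14:55603735-55603984, plus strand): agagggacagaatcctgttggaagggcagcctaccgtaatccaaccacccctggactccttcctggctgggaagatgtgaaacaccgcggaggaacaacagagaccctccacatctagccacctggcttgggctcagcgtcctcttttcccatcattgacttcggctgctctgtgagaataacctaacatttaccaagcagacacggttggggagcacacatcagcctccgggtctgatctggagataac
The Irf2 window held 1 ISRE core, GAAAATGAAA, that began 241 bases before the start, and 1 GAS element, TTCCGAGAA, that began 224 bases before it. The Irf1 window held the GAS element TTCCCCGAA at 90 bases, and the Irf8 window held TTCTCGGAA at 171 bases and TTCAGAGAA at 153 bases. The Irf7 and Irf9 windows shown, the further windows of Irf1, Irf8 and Irf9, and the windows of Irf3, Irf4 and Irf5 held neither set of letters. The Irf5 window lay wholly inside the annotated gene, and the Irf7 window partly. The bases directly before the outermost 5′ end were therefore not searched for Irf5 and only partly searched for Irf7. Of 32851 mouse promoter windows of the same length, 2.98% held the ISRE core and 7.02% the GAS element. These matches describe the letters and do not show a bound site.

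The repressor Irf2 had log2 signals of 7.77, 7.96, 7.94, 7.84 and 8.02 on ipsilateral replicates 1 to 5, against 8.25, 8.23, 8.27, 8.30 and 8.41 on contralateral replicates 1 to 5. The groups did not overlap, and the highest ipsilateral value stood 0.21 below the lowest contralateral one. The means were 7.91 ± 0.10 ipsilaterally and 8.29 ± 0.07 contralaterally (SD, n = 5 per side), a difference of -0.39 ± 0.06 (SE of the fit, 95% interval -0.53 to -0.25, adjusted p = 0.00652). Groups did not overlap for 7.25% of all genes tested, and for 5.21% with the ipsilateral side lower. An exact two-sided permutation test over the 252 splits of the arrays gave p = 0.00794 for Irf2, the smallest they allow. The lowest of the 10 values was on ipsilateral replicate 1, the ipsilateral array whose Irf7, Irf8 and Irf9 signals were the lowest of their side. When arrays 2 and 4 of each side were omitted, which left 3 per side, Irf2 no longer passed (-0.40, adjusted p = 0.121).

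Some markers of neurons and 1 of oligodendrocytes fell on the same side as Irf2. In bulk tissue, fewer cells of a type and less RNA per cell cannot be told apart. Of 10 measured neuronal markers 3 fell, the splicing factor Rbfox3 (-0.54, adjusted p = 0.0102) and the neurofilament genes Nefl (-0.89, adjusted p = 0.0166) and Nefm (-0.998, adjusted p = 0.00663). The neuronal list was mixed, with 6 negative and 4 positive differences and a median of -0.19. The positive ones, none of which passed, were Gad2 (0.60), Gad1 (0.21), Map2 (0.14) and Tubb3 (0.05). Of 7 measured oligodendrocyte markers the oligodendrocyte membrane gene Opalin fell (-1.52, adjusted p = 0.0164), all 7 had negative differences, and their median was -1.19. Without contralateral replicate 1, Nefl (adjusted p = 0.0521) and Opalin (adjusted p = 0.0526) no longer passed. Without contralateral replicate 2 the synaptic vesicle gene Syt1 also fell. Without contralateral replicate 4, 5 of the 7 oligodendrocyte markers fell (Cnp, Mag, Mobp, Mog and Opalin), and without ipsilateral replicate 4, 3 did (Mobp, Mog and Opalin). Of all 30142 genes tested, 1305 fell with all arrays. Without contralateral replicate 2, contralateral replicate 4 or ipsilateral replicate 4, 1039, 1187 and 998 did. The mean level of the neuronal list ran from 13.26 to 13.92 ipsilaterally and from 13.66 to 13.85 contralaterally, and that of the oligodendrocyte list from 9.61 to 10.92 and from 10.20 to 11.64. On ipsilateral replicate 1, where Irf2 was lowest, the oligodendrocyte list stood 1.51 below its contralateral mean. The neuronal list stood 0.15 above its own there, with Gad1 and Gad2, the enzymes of GABA synthesis, at 14.65 and 13.53 on that array, against contralateral means of 12.30 and 11.86. Rbfox3, Nefl and Nefm were at 11.28, 13.83 and 7.30 on the same array, below every contralateral array. On ipsilateral replicates 2 to 5 the oligodendrocyte list deviated from its contralateral mean by -1.26, -1.52, -0.21 and -0.56. Irf2 was at 7.96, 7.94, 7.84 and 8.02 there. Contralaterally the list ran from -0.93 (replicate 4, Irf2 at 8.30) to 0.52 (replicate 3, Irf2 at 8.27). The part of neurons and oligodendrocytes in the Irf2 difference was not tested.

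Irf1, an activator induced by interferon-gamma and the counterpart of Irf2 at shared sites, had 5.23, 5.36, 5.19, 5.57 and 5.53 on ipsilateral replicates 1 to 5 and 5.23, 5.23, 5.12, 5.10 and 5.10 on contralateral replicates 1 to 5. Ipsilateral replicates 2, 4 and 5 lay above every contralateral array, and replicates 1 and 3 lay within their range. The means were 5.38 ± 0.17 and 5.16 ± 0.07, and the difference of 0.22 (95% interval 0.04 to 0.40) did not pass (adjusted p = 0.157). A second, dimmer feature that names Irf1 averaged 4.03 ± 0.11 ipsilaterally and 4.18 ± 0.19 contralaterally, a difference of -0.15 (adjusted p = 0.402) below every array's median, so the 2 features disagreed in sign, and the mean of both gave a difference of 0.03 (adjusted p = 0.832).

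Irf3, the constitutive factor that TBK1 phosphorylates after viral nucleic acid is sensed, showed little difference: its ipsilateral signals were 6.16, 6.08, 6.09, 6.14 and 6.15, and its contralateral signals 6.12, 6.11, 6.12, 6.07 and 6.13. Ipsilateral replicates 1, 4 and 5 lay just above every contralateral array, and all 10 values lay within 0.09 of each other. The difference was 0.01, with a 95% interval of -0.09 to 0.11 (adjusted p = 0.902), and its sign turned with quantile normalization (-0.07), median centring (-0.06) and cyclic loess (-0.02). Irf5, a factor of myeloid cells that acts downstream of MyD88, had 5.02, 5.09, 5.06, 5.34 and 5.26 ipsilaterally and 5.10, 5.11, 5.01, 5.10 and 5.09 contralaterally. Ipsilateral replicates 4 and 5 lay above all contralateral arrays, and the other 3 did not. Its difference of 0.07 (95% interval -0.08 to 0.23) did not pass (adjusted p = 0.613), and with quantile normalization it was -0.0046. Irf4, a factor of lymphocytes and of some myeloid cells, ran from 3.54 to 3.92 ipsilaterally and from 3.68 to 3.99 contralaterally, with medians of 3.78 on both sides (difference -0.06, 95% interval -0.24 to 0.12, adjusted p = 0.751). As those signals lay below every array's median, they do not show whether Irf4 was expressed.

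Irf9, the DNA-binding subunit of the complex ISGF3, which acts below the type I interferon receptor, came closest to the threshold among the higher members. Its signals were 6.42, 6.72, 6.57, 7.06 and 7.43 on ipsilateral replicates 1 to 5, against 5.98, 6.43, 6.19, 5.96 and 6.20 on contralateral replicates 1 to 5. Of the 5 ipsilateral arrays 4 lay above every contralateral array, and replicate 1 lay just under contralateral replicate 2. The means were 6.84 ± 0.41 and 6.15 ± 0.19, a difference of 0.69 ± 0.18 (95% interval 0.29 to 1.08, adjusted p = 0.0512), or 1.61-fold. Of 24 alternative settings 5 brought it under the threshold, among them leaving out ipsilateral replicate 1 (0.79, adjusted p = 0.0228), and its adjusted p over these settings ran from 0.0228 to 0.271.

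Irf7, the interferon-induced factor that amplifies type I interferon production, had 5.56, 6.10, 5.82, 7.19 and 6.91 on ipsilateral replicates 1 to 5, against 5.45, 5.98, 5.57, 5.35 and 5.54 on contralateral replicates 1 to 5. Ipsilateral replicates 4 and 5 lay far above the rest, replicate 2 lay just above contralateral replicate 2, and replicates 1 and 3 lay within the contralateral range. The means were 6.32 ± 0.70 and 5.58 ± 0.24. The difference of 0.74 ± 0.29 was the largest among the members, with the widest interval (0.10 to 1.38), and did not pass (adjusted p = 0.175). Irf8, the lineage factor of microglia and other myeloid cells, had 5.41, 5.66, 5.52, 6.29 and 6.19 ipsilaterally, against 5.47, 5.46, 5.44, 5.32 and 5.48 contralaterally. Replicates 2 to 5 of the ipsilateral side were above every contralateral array, and replicate 1 was not. The means were 5.81 ± 0.40 and 5.43 ± 0.07, a difference of 0.38 ± 0.16 (95% interval 0.02 to 0.74, adjusted p = 0.210), which was 0.24 without the arrays numbered 2 and 4, and the ipsilateral SD was 6.12 times the contralateral one.

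**Figure D2:**
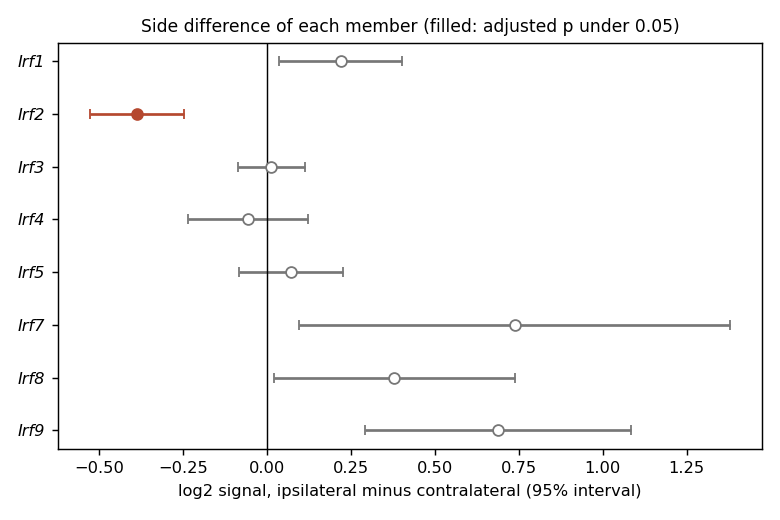
Difference in log2 signal, ipsilateral minus contralateral (horizontal axis), for each member with its 95% interval from limma; the filled point passed an adjusted p of 0.05. Irf2 lies below 0 with its whole interval, Irf7 and Irf9 have the largest positive differences, and Irf3, Irf4 and Irf5 have intervals that span 0.

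The direction of the difference was not shared by all members. Of the 8 members 6 had positive and 2 negative differences, with a median of 0.15, where the median over all genes tested was 0.02, with 16833 positive and 13134 negative differences. With quantile normalization 4 members were positive and 4 negative, and with median centring 4 were positive, 3 negative and Irf5 at 0. At an unadjusted p under 0.05, 5 members differed, Irf1, Irf2, Irf7, Irf8 and Irf9, where 21.3% of all genes did. Exact two-sided permutation tests of single members gave p = 0.0159 for Irf9, 0.0476 for Irf1, 0.0556 for Irf7, 0.0635 for Irf8, 0.381 for Irf5, 0.532 for Irf4 and 0.548 for Irf3, none adjusted for the number of genes.

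The spread between samples was wider at the impact site for every member. The ratio of the ipsilateral to the contralateral SD ran from 1.21 for Irf4 to 6.12 for Irf8, and 63.6% of all genes tested varied more ipsilaterally. For 5 members, Irf1, Irf5, Irf7, Irf8 and Irf9, the 2 highest of the 10 arrays were ipsilateral replicates 4 and 5, a pattern that 9.78% of all genes tested shared. Irf2 differed from these, since its ipsilateral replicates all lay 0.27 to 0.52 below the contralateral mean. On the contralateral side, replicate 2 had the highest Irf7 and Irf9 signals of its group, 0.40 and 0.28 above the contralateral mean.

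**Figure D3:**
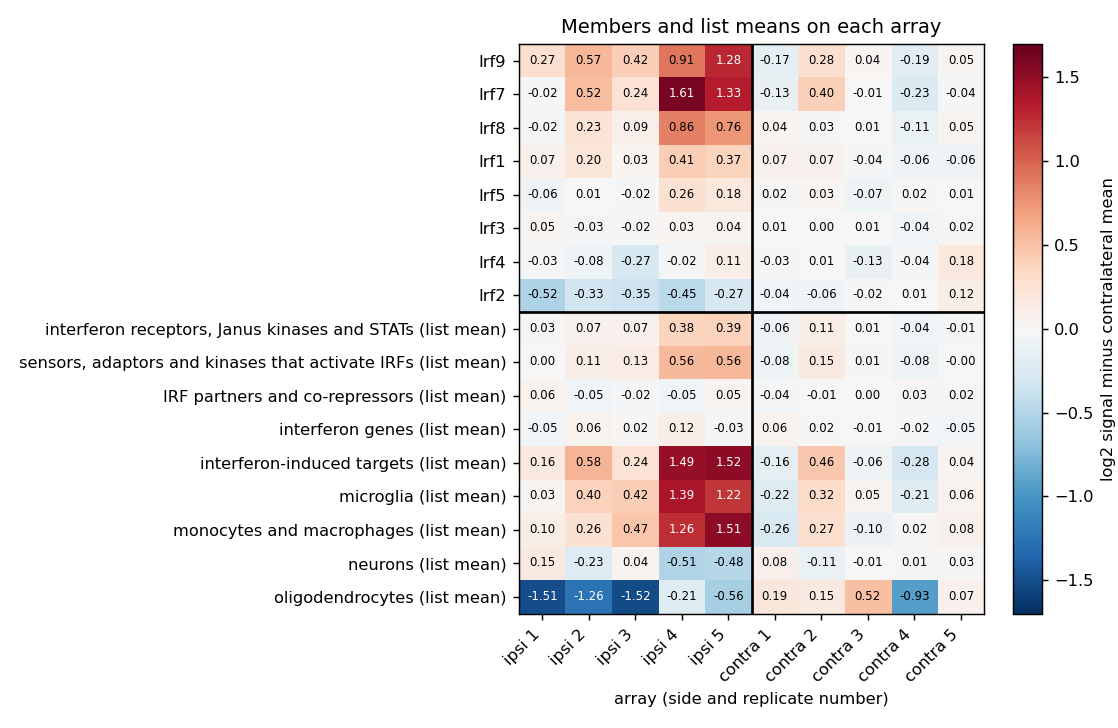
Log2 signal minus the contralateral mean (colour and printed value) for the 8 members (upper rows) and the means of some gene lists (lower rows). Ipsilateral arrays are left and contralateral arrays right of the line. The astrocyte, neutrophil, T and NK cell, B and plasma cell, dendritic cell, and endothelial and pericyte lists are not drawn. Ipsilateral replicates 4 and 5 are high for Irf9, Irf7 and Irf8 and for the interferon-induced and microglial lists, while Irf2 is low on all 5 ipsilateral arrays.

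Interferon-induced genes, the targets of these factors, had their highest list means on the same 2 arrays. All 21 measured had positive differences, with a median of 0.81, but none passed, with the lowest adjusted p at 0.0682. At an unadjusted p under 0.05, 17 of the 21 differed, where 21.3% of all genes did. Without ipsilateral replicate 1, 4 of the 21 passed as higher (B2m, Cxcl10, Ifitm3 and Oasl2), and without ipsilateral replicate 3, 1 did (Casp1). Of all 30142 genes tested, 760 and 336 passed as higher in these fits, against 369 with all arrays. The list mean on ipsilateral replicates 1 to 5 was 6.37, 6.79, 6.45, 7.70 and 7.73, against 6.05, 6.67, 6.15, 5.93 and 6.25 on contralateral replicates 1 to 5. Ipsilateral replicates 1 and 3 therefore lay below contralateral replicate 2. The members with the strongest statistics were Ifitm3, a membrane protein that restricts virus entry (9.30 ± 1.05 ipsilaterally and 7.63 ± 0.61 contralaterally, adjusted p = 0.0682), B2m, the light chain of MHC class I (15.60 ± 0.92 and 14.23 ± 0.51, adjusted p = 0.0814), and Casp1, the inflammasome protease (7.16 ± 0.68 and 6.26 ± 0.11, adjusted p = 0.0825). The interferon genes themselves were dim, with Ifng, Ifne and Ifnk the lowest, from 3.21 to 3.99 over all arrays. Of 10 measured, 5 had positive and 5 negative differences, the median was -0.00, and 4 were below the median on every array. None of them passed, and 1, Ifna4, differed at an unadjusted p under 0.05 (5.15 ± 0.24 and 4.83 ± 0.20, adjusted p = 0.176). Ifna1 (0.12, adjusted p = 0.576) and Ifnl3 (-0.08, adjusted p = 0.595) were next by statistic.

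Upstream of the factors, the kinase gene Tbk1 fell and no other gene passed. TBK1 is a kinase that activates Irf3 and Irf7. Tbk1 had 10.60, 10.51, 10.54, 10.55 and 10.47 on ipsilateral replicates 1 to 5, against 10.73, 10.76, 10.85, 10.79 and 10.67 on contralateral replicates 1 to 5. The groups did not overlap, as for 5.21% of all genes tested with the ipsilateral side lower, and the difference was -0.23 ± 0.05 (adjusted p = 0.0341). The call was fragile: it ended without 8 of the 10 single arrays, all except ipsilateral replicate 1 and contralateral replicate 5 (adjusted p up to 0.0934), with quantile normalization (0.0635), with cyclic loess (0.120) and without the arrays numbered 2 and 4 (0.301). Of the 16 measured sensors, adaptors and kinases that activate these factors, 13 had positive differences (median 0.23), among them the endotoxin receptor Tlr4 (6.32 ± 0.43 and 5.68 ± 0.10, adjusted p = 0.0599) and the adaptor Sting1 (7.16 ± 0.48 and 6.52 ± 0.18, adjusted p = 0.0997). At an unadjusted p under 0.05, 8 of these 16 differed, where 21.3% of all genes did. Without ipsilateral replicate 1, Sting1 and the endosomal RNA receptor gene Tlr7 passed as higher, and without ipsilateral replicate 2, Tlr4 did. In these fits 760 and 257 of all 30142 genes tested passed as higher. Ikbke, another kinase gene of this list, went the other way from Tbk1 (0.13, adjusted p = 0.166). The Ikbke groups did not overlap, as for 7.25% of all genes tested in either direction. Its signals, from 4.47 to 4.75, each lay below the median of their own array.

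Of 8 measured interferon receptors, Janus kinases and STAT genes none passed, and their median difference was 0.10. At an unadjusted p under 0.05, 2 of these 8 differed, near the 21.3% of all genes tested. Ifngr1, a chain of the interferon-gamma receptor, had 8.45, 8.48, 8.47, 9.23 and 9.34 ipsilaterally, against 7.95, 8.35, 8.13, 8.06 and 8.12 contralaterally. Its groups did not overlap, as for 7.25% of all genes tested in either direction, but the difference of 0.67 ± 0.19 did not pass (adjusted p = 0.0660). Without ipsilateral replicate 1, Ifngr1 and Ifngr2 passed as higher, among 760 of all 30142 genes tested. Ifnar2, a chain of the type I interferon receptor, differed by 0.47 (adjusted p = 0.154), and Stat2, the partner of Irf9 in ISGF3, by 0.31 (adjusted p = 0.298).

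Of 10 measured partners and co-repressors, which include proteins that bind Irf2 and some of the partners of Irf4 and Irf8, none passed, and the median difference was 0.02. At an unadjusted p under 0.05, 2 of these 10 differed, near the 21.3% of all genes tested. The coactivator gene Crebbp was at -0.27 (adjusted p = 0.175), the AP-1 family gene Batf at 0.15 (adjusted p = 0.226) and the Ets factor gene Spib at 0.10 (adjusted p = 0.347). The Irf2-binding protein genes Irf2bp1, Irf2bp2 and Irf2bpl, named here after their values had been seen, differed by 0.00, -0.14 and -0.13, with adjusted p of 0.990, 0.393 and 0.640.

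Microglial markers had their highest list means on the arrays where Irf8 and Irf7 were highest. All 11 measured had positive differences, with a median of 0.77, none passed, and 9 differed at an unadjusted p under 0.05, where 21.3% of all genes did. Without ipsilateral replicate 1, 6 of the 11 passed as higher (Aif1, Csf1r, Itgam, Laptm5, Ptprc and Siglech). In that fit 760 of all 30142 genes tested passed as higher, against 369 with all arrays. The strongest were the leukocyte phosphatase Ptprc (6.75 ± 0.55 and 5.91 ± 0.30, adjusted p = 0.0769), the integrin Itgam (9.93 ± 0.86 and 8.85 ± 0.36, adjusted p = 0.119) and the receptor Csf1r (11.98 ± 0.75 and 11.08 ± 0.32, adjusted p = 0.134). The list mean was 7.61, 7.97, 7.99, 8.97 and 8.80 on ipsilateral replicates 1 to 5, against 7.36, 7.89, 7.63, 7.36 and 7.63 on contralateral replicates 1 to 5, so that ipsilateral replicates 4 and 5 again stood highest. Among 10 monocyte and macrophage markers 1, the scavenger receptor Cd163, rose (0.47, adjusted p = 0.0227), all 10 had positive differences, and the list mean ran from 6.37 to 7.79 ipsilaterally and from 6.01 to 6.54 contralaterally. The Cd163 call ended without ipsilateral replicate 4 or without contralateral replicate 1, 3 or 5 (adjusted p up to 0.0663). The part of these cells in the differences of Irf1, Irf5, Irf7, Irf8 and Irf9 was not tested.

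Markers of the other cell types gave few calls, and those of lymphocytes were dim. Of 9 markers of T and NK cells and 7 of B and plasma cells none passed, 5 and 6 of them lay below the median on every array, and the list means ran from 4.29 to 4.52 and from 4.22 to 4.38 ipsilaterally and from 4.25 to 4.35 and from 4.23 to 4.34 contralaterally. None of 8 neutrophil markers passed (list mean 4.43 to 5.02 ipsilaterally and 4.36 to 4.48 contralaterally). Of 9 dendritic cell markers the cytokine receptor gene Flt3 fell (-0.37, adjusted p = 0.0402), 4 of them were below the median on every array, and the list mean ran from 5.98 to 6.11 ipsilaterally and from 6.04 to 6.15 contralaterally. The Flt3 call ended without any single array other than contralateral replicate 4 (adjusted p up to 0.104). Of 8 astrocyte markers the water channel Aqp4 rose (0.95, adjusted p = 0.0117). The astrocyte list had 6 positive differences and 2 negative ones, with a median of 0.39. The negative ones were Aldh1l1 at -0.36 (adjusted p = 0.121) and Slc1a2 at -0.15 (adjusted p = 0.454). The 8 endothelial and pericyte markers gave no call. Without ipsilateral replicate 1, the astrocyte genes Gfap, Slc1a3 and Sox9, the monocyte gene F13a1 and the neutrophil gene Csf3r also passed as higher, and Zbtb46 and Pacsin1 of the dendritic cell list as lower. In that fit 760 of all 30142 genes tested passed as higher and 1607 as lower. Pacsin1 is also known as a neuronal gene. The mean of the astrocyte list ran from 11.12 to 12.05 ipsilaterally and from 10.90 to 11.28 contralaterally. That of the endothelial and pericyte list ran from 7.99 to 8.71 and from 7.91 to 8.37. The astrocyte list was also highest on ipsilateral replicates 4 and 5 (11.88 and 12.05), and the part of these cells in the differences of Irf7, Irf8 and Irf9 was not tested.

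The genes most like Irf7 and Irf9 were named by the root mean square difference between 10-array profiles, each centred on its own mean, among 20484 candidates. These were the members whose arrays spanned over 1 on the log2 scale. Nearest to Irf7 were Pik3ap1, an adaptor of phosphoinositide 3-kinase signalling in leukocytes (0.0882), Cyba, a subunit of the phagocyte NADPH oxidase (0.104), Phf11b (0.111) and the interferon-induced gene Ifi27l2a (0.112). Nearest to Irf9 were Trim12a (0.104), the galactosyltransferase gene B4galt1 (0.108), Ifngr1 (0.109) and Abhd4 (0.117). Pik3ap1 had 6.59, 7.04, 7.01, 8.20 and 8.11 ipsilaterally, against 6.40, 7.04, 6.53, 6.45 and 6.62 contralaterally, with ipsilateral replicates 4 and 5 and contralateral replicate 2 high in their groups as for Irf7. None of these 8 genes passed the test, with adjusted p from 0.0660 to 0.226.

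**Figure D4:**
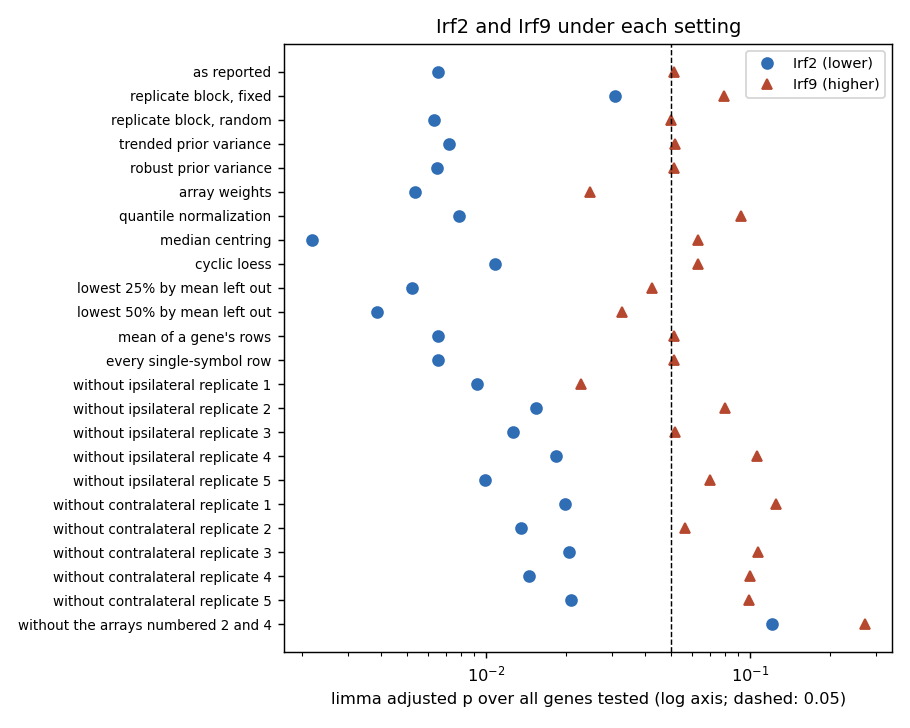
Adjusted p from limma (horizontal log axis) of Irf2 (circles, lower ipsilaterally) and Irf9 (triangles, higher ipsilaterally) in the reported fit and under alternative settings (vertical axis), with the threshold of 0.05 dashed. The threshold of 0.01, which reuses the reported fit, and the exact permutation test are not drawn. Irf2 stays left of the line except without the arrays numbered 2 and 4, and Irf9 lies close to the line or right of it in most settings.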

How the data were processed

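RNA from mouse brain was profiled on 10 Affymetrix whole-transcript arrays, 5 per side. The authors deposited log2 signals, 1 value per feature and array, and the submitters' processing notes name Transcriptome Analysis Console 4.0 as the tool. That the scale is log2 follows from the range of values, 1.97 to 19.93. Background correction, normalization, summarization and genome build are not given in the sources used here. No pair of arrays held identical values, and the labels gave no batch.

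Of 65956 rows, 30604 named 1 gene symbol in the array annotation, 2146 named several and were left out, and 33206 were unnamed here. Symbols were updated by Entrez identifier from a RefSeq table (827 updates), and the brightest row per gene was kept, which left 30142 genes. Ipsilateral minus contralateral was estimated over all arrays with lmFit and eBayes and no covariates (limma 3.58.1, R 4.3.3) with Benjamini-Hochberg adjustment over all genes, two-sided, and called at an adjusted p under 0.05. The fit was tested on simulated data. Levels are log2 signals with the SD of 5 arrays, and differences carry the SE that limma estimated. If replicates share an animal or a preparation, the p-values measure only the spread between these samples.

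The 8 members and 15 gene lists (163 entries, of which 152 had a row naming them alone) were chosen with earlier results of these data known, and so were the alternatives. Named were all members, every called list gene, the 3 strongest statistics of each pathway list and of the microglial list, and the 4 genes nearest to each member spanning over 1; for the other marker lists only called genes were named, and Snap25 and Gfap as a check of tissue. Genes that passed only when a single array was left out were chosen for naming once their values were known. So were Aldh1l1, Slc1a2, Gad1, Gad2, Map2, Tubb3 and Ikbke, named to show the other direction within a list. Alternatives were a replicate block, other variance priors, array weights, scaling by quantiles, by medians or by cyclic loess, filters on the dimmest 25% and 50%, other row choices, a threshold of 0.01, exact permutation, and arrays left out. The replicate number was not treated as pairing.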

Additional observations from a re-analysis of the deposited data

Results flagged for a closer look

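Dixon's test set a single array apart from the other 4 of its side in 6 of 80 groups (40 named genes on 2 sides), where chance gives about 1 in 20. Among the members, Irf8 was low on contralateral replicate 4 (5.32, others 5.44 to 5.48), and Irf5 on contralateral replicate 3 (5.01, others 5.09 to 5.11). Among pathway genes, Stat2 was high on contralateral replicate 2 (8.32, others 7.89 to 7.97), the array with the highest Irf7 and Irf9 of its side. Crebbp was low on ipsilateral replicate 4 (12.46, others 12.91 to 13.01), and Ifna4 was high there (5.56, others 4.96 to 5.13). Ifna1 was high on ipsilateral replicate 2 (5.16, others 4.57 to 4.73).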

How the results depend on the processing

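The Irf2 call held in 23 of 24 alternatives, with differences from -0.46 to -0.35. Irf7, Irf8, Irf1, Irf3, Irf4 and Irf5 passed in none of those that could be fitted for them and were adjusted over all genes, while Irf9 passed in 5. The alternatives were not independent. Irf2 and Irf9 had 1 row each, so the other row choices left their values unchanged. The threshold of 0.01 reused the reported fit, in which Irf9 was already above 0.05. The random replicate block estimated a correlation of only 0.007 within replicate numbers. By the exact permutation test, unadjusted, Irf1 and Irf9 were also under 0.05. The difference of Irf3 turned to -0.0716 (quantile normalization), -0.058 (median centring) and -0.0202 (cyclic loess), and that of Irf5 to -0.0046 (quantile normalization). The number of members called higher, 0 as reported, was 1 (Irf9) with a random replicate block, array weights or either filter on dim genes, and 0 to 1 with single arrays left out. The number called lower was 0 without the arrays numbered 2 and 4, and 1 in every fit without a single array. Over all genes, 369 were higher and 1305 lower. These counts were 177 and 769 with a fixed replicate block, 232 and 2623 with median centring, 47 and 537 at a threshold of 0.01, and 77 and 289 without the arrays numbered 2 and 4, while 656 were higher with array weights. With single arrays left out they ran from 111 to 760 and from 740 to 1607. The deviations of same-numbered arrays, replicates 1 to 5, correlated across genes by 0.259, 0.255, -0.043, -0.399 and -0.034, with no common sign. Of 10 arrays, 3 correlated best with their own number on the other side. These values do not show whether equal numbers mark the same animal. With the fixed replicate block Irf2 passed (adjusted p = 0.0307) and Irf9 did not (0.0792). Pathway genes called higher, 0 as reported, were 5 with array weights, 1 and 3 with the filters at 25% and 50%, and 0 to 8 with single arrays left out, 8 being without ipsilateral replicate 1. Pathway genes called lower, 1 as reported (Tbk1), were 0 with the fixed replicate block, quantile normalization, cyclic loess, the threshold of 0.01 and without the arrays numbered 2 and 4, and 0 to 1 with single arrays left out. Marker genes called higher, 2 as reported, were 1 with the fixed replicate block, quantile normalization or cyclic loess, 4 with array weights, 0 at the threshold of 0.01 and without the arrays numbered 2 and 4, and 1 to 13 with single arrays left out, 13 being without ipsilateral replicate 1. Marker genes called lower, 5 as reported, were 2 with the fixed replicate block, 8 with array weights, 10 with median centring, and 1 at the threshold of 0.01 and without the arrays numbered 2 and 4, and 2 to 9 with single arrays left out. Leaving out arrays also leaves fewer samples, and other causes were not tested. Dim signals, such as those of Irf4 and several interferon genes below the array medians, limit what a flat value shows.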
